A study of Mus musculus with 59 samples.

Results

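Brain-derived neurotrophic factor (Bdnf) and 6 genes that act with it or are read out beside it were followed through the prefrontal cortex of young Dyrk1a mutant mice. The 7 genes were the rows of the deposited table whose Ensembl identifier carries the symbol Bdnf, Ntf3, Ntrk2, Ntrk3, Ngfr, Sort1 or Vgf, and all 7 were found among 18088 genes. Each of the 7 passed the filter on low values, which kept 17901 genes with 10 or more normalised counts in 4 or more libraries. RNA was sequenced from 59 C57BL/6J mice, 30 of them heterozygous for the Dyrk1a+/I48X allele and 29 wild type. Dyrk1a encodes a dual-specificity kinase of neural development; patients with 1 working copy have a syndrome with intellectual disability. Vehicle, lithium or fluoxetine, a serotonin reuptake inhibitor, reached the pups through the milk of the treated dam from postnatal day 3 to 24, and prefrontal cortex was taken at day 25. The 12 groups of genotype, treatment and sex held 5 mice each, except wild-type fluoxetine males with 4. The vehicle groups of both genotypes serve as the controls of both drugs, so comparisons of either drug with vehicle share them. The labels name no litters and the drug was given to a whole litter through the dam, so a p-value here speaks only to the spread between these samples.

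Neurotrophins are small secreted proteins that support the survival of neurons and the growth and strength of their synapses. They are made as precursors, sorted into secretory granules and cleaved. The mature factors signal through Trk receptor kinases, while the precursors bind p75 together with a sorting receptor. In cortex, Bdnf is transcribed mainly in excitatory neurons, in response to activity, from several alternative promoters that all join to 1 coding exon. TrkB, its receptor, is found in neurons and, as a truncated form, in astrocytes.

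The gene-level values add up every transcript of Bdnf, so they cannot tell its promoters apart. The sequences upstream of its transcription starts are shown because Bdnf is the ligand on which the results turn, and because its starts share little sequence. RefSeq (GRCm38.p6) lists 7 starts on the plus strand of chromosome 2, from chr2:109674700 to chr2:109722921. The 60 bases just before each start are given 5′ to 3′, and capitals mark the sequence TCACGTCA, a form of the cAMP response element bound by CREB-family factors.
Start 1, chr2:109674640-109674699: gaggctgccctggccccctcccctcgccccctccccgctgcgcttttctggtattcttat
Start 2, chr2:109676972-109677031: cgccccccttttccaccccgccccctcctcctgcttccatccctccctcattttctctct
Start 3, chr2:109692376-109692435: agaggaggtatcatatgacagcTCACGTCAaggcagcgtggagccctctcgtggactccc
Start 4, chr2:109692967-109693026: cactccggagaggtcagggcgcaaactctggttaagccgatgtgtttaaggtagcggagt
Start 5, chr2:109694349-109694408: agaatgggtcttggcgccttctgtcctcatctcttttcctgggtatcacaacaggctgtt
Start 6, chr2:109709323-109709382: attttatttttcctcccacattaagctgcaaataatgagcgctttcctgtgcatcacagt
Start 7, chr2:109722861-109722920: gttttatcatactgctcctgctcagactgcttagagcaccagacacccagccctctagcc
TCACGTCA was searched on both strands in windows of 250 bases before to 50 bases after each start. It lay once in the 7 Bdnf windows, at start 3, from 38 to 31 bases before the start (chr2:109692398-109692405), and in 0 of the 4 windows listed for Ntrk2, Ntf3 and Ngfr. Of all 32851 RefSeq windows, 0.441% held it. The full palindrome TGACGTCA, held by 1.79% of windows, and an AP-1 site TGANTCA, held by 7.81%, matched 0 and 1 of the 7 Bdnf windows. The shorter TGACG, whose reverse complement overlaps the match at start 3, was held by 20.8% of windows and by the same 1 Bdnf window. The E-box CACGTG, held by 7.15%, matched 0 of the 7 Bdnf windows and 1 of the other 4. A match is a run of letters and not a measured binding site.

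The libraries held 24391022 to 33842466 counts each, as computed back from the table. Values are normalised counts, the counts divided by a size factor of the library. Dyrk1a itself, the targeted gene, was not lower in heterozygous mice: it ran from 2141 to 4214 with a median of 2320, against 2066 to 2327 with a median of 2185 in wild-type mice, so its level does not check the labels. The excitatory neuron marker Slc17a7, the vesicular glutamate transporter, had at least 24775 normalised counts in each library. Its level shows that excitatory neurons were sampled, and not which region was taken or how much of another region came with it. Markers of the olfactory bulb differed widely between libraries. Of a list of 16 such genes, each was in the table, and neither defining marker was at 0 in any library. Doc2g, of mitral and tufted cells, ran from 115 to 8273 and Cdhr1 from 116 to 10586 normalised counts. Replicates 3 and 4 of the heterozygous fluoxetine males stood apart on a list of 11 glucocorticoid-responsive genes, with list means of 1.44 and 0.37 on the log2 scale, against -0.17 to 0.13 in the other 57 libraries. The fluoxetine results of the heterozygous males are given with and without them.

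**Figure D1:**
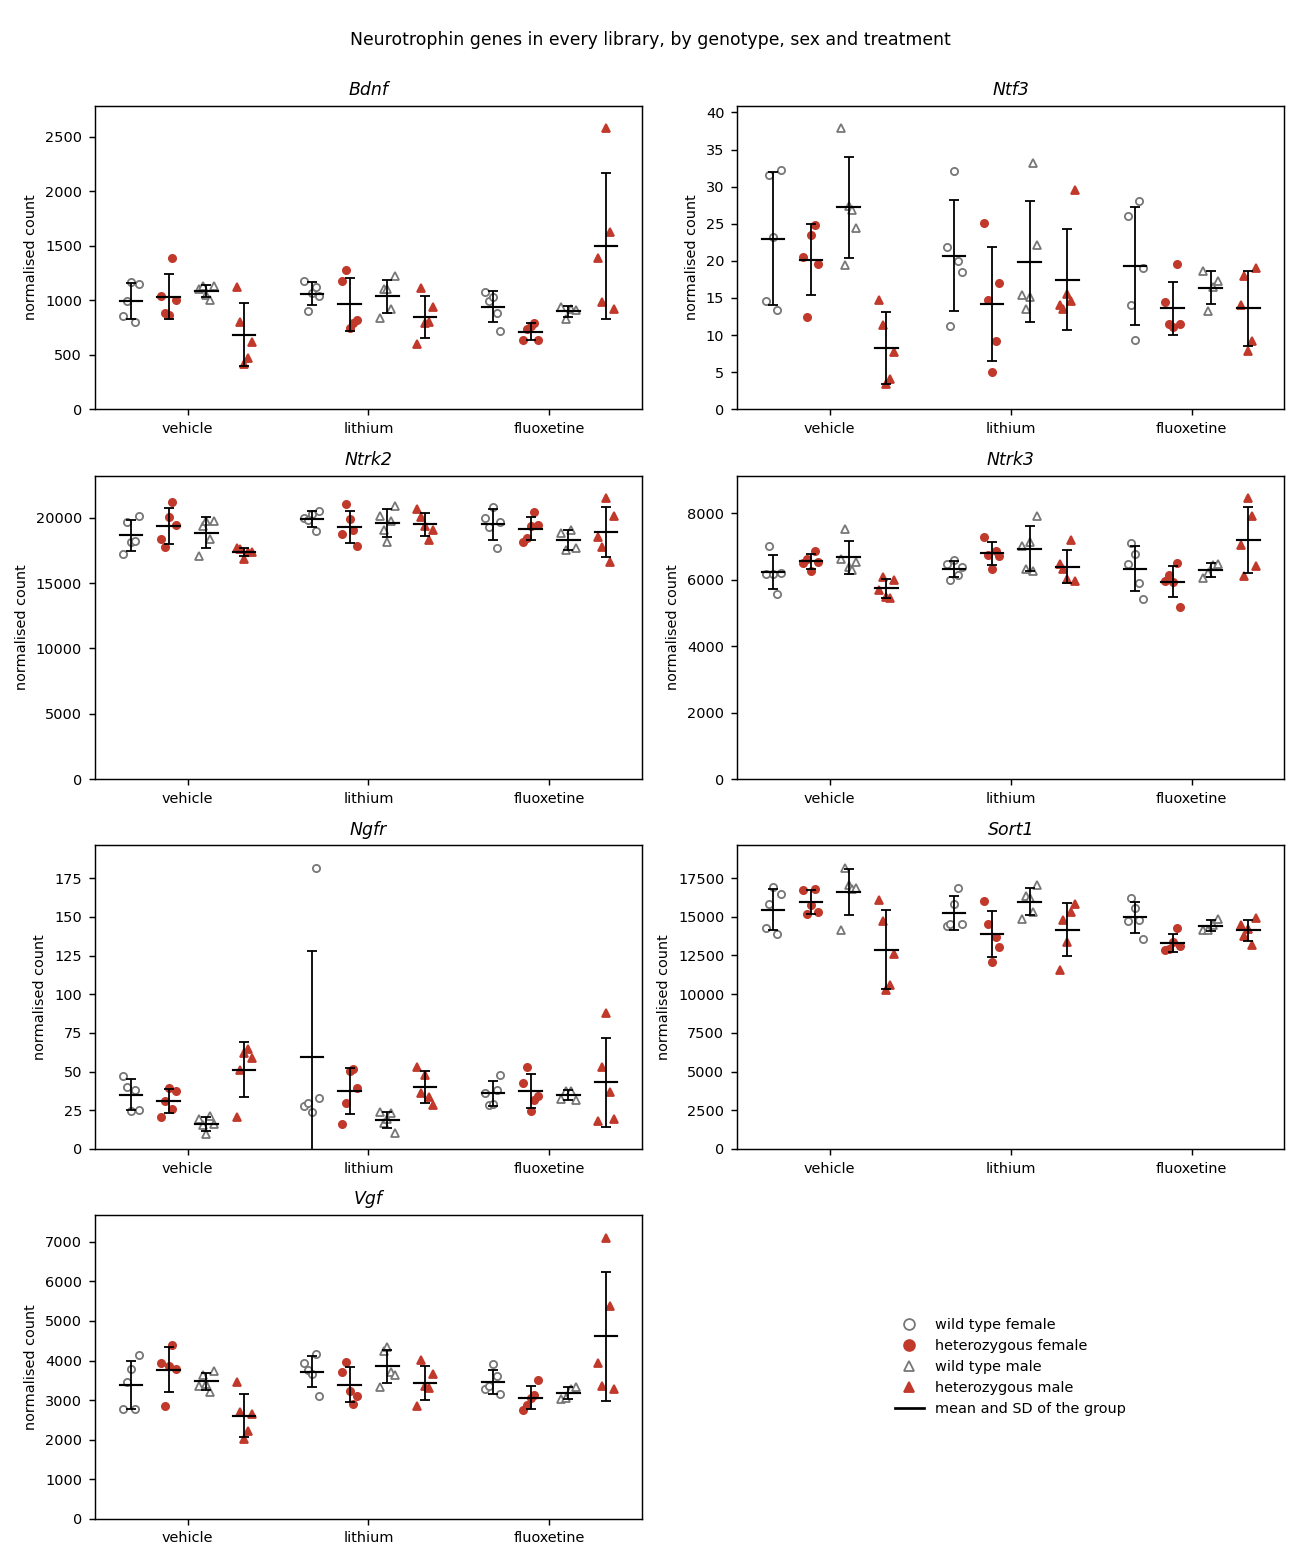
Normalised counts (vertical axes, starting at 0) of the 7 genes in each library, by treatment, with the 4 groups of each treatment side by side; symbols give genotype and sex, and bars the group mean and SD (n = 5, or 4 in wild-type fluoxetine males). Heterozygous vehicle males sit low for Bdnf, Ntf3, Ntrk3, Sort1 and Vgf and high for Ngfr, and 2 heterozygous fluoxetine males sit high for Bdnf and Vgf; the SD bar of Ngfr in wild-type lithium females runs below the axis.

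Per kilobase of merged exons (GENCODE M21 models on GRCm38), Sort1 was the highest of the 7 genes in the 10 wild-type vehicle mice. Sort1 (chr3:108284082-108361511, plus strand) had 2119 ± 192 normalised counts per kilobase (SD, n = 10). Vgf (chr5:137026392-137033351, plus strand) had 1154 ± 144 and Ntrk2 (chr13:58806569-59133970, plus strand) 972 ± 57.7. These levels of Vgf and Ntrk2 overlapped between mice. Ntrk3 (chr7:78175959-78738012, minus strand) followed with 214 ± 17.6 and Bdnf (chr2:109674700-109727007, plus strand) with 167 ± 20.3, again overlapping. Ntf3 (chr6:126101412-126166910, minus strand) had 14.6 ± 4.56 and Ngfr (chr11:95568818-95587735, minus strand) 7.46 ± 3.54, and these overlapped as well. Sort1 lay above Vgf, Ntrk2 above Ntrk3, and Bdnf above Ntf3 in each of the 10 mice. The 2 lowest genes rest on few counts. Antisense genes in the table overlap Bdnf (Gm45346) and Ntrk3 (Gm9885); the kit marks strand, but whether counting used it is not given in the sources used here.

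The study's first question was what the heterozygous mutation does under vehicle. With both sexes weighted equally, 2 of the 7 genes were called, against 13.1% of all genes tested (limma, Benjamini-Hochberg adjusted p under 0.05). Ntf3, the ligand of TrkC, was lower by 0.94 ± 0.24 on the log2 scale (standard error) with an adjusted p of 0.0222, and Sort1, the sortilin receptor that carries Bdnf precursor, fell by 0.17 ± 0.06 with an adjusted p of 0.0491 (limma). Both calls were lost when the mean of the 16 olfactory bulb markers was added to the model as a term (limma adjusted p = 0.667 for Ntf3 and 0.901 for Sort1, the highest of their alternative settings, whose lowest were 0.000404 and 0.000377). That fit called 0 genes of all. The call of Ntf3 was also lost in limma on the 4 vehicle groups alone and without heterozygous male replicate 3 or 4 or wild-type female replicate 3 or 5, and that of Sort1 in limma on those groups alone and without any 1 of 13 of the 20 libraries. Bdnf had a log2 difference of -0.35 ± 0.14 (limma adjusted p = 0.0762), and Ngfr one of 0.68 ± 0.26 (limma adjusted p = 0.0687). Ntrk2, Ntrk3 and Vgf had differences of -0.03, -0.07 and -0.14 with limma adjusted p of 0.604, 0.348 and 0.327. Averaged over the 3 treatments, the same 2 genes were called, against 21.4% of genes: Ntf3 fell by 0.56 ± 0.14 (limma adjusted p = 0.0091) and Sort1 by 0.14 ± 0.03 (limma adjusted p = 0.00883). No single library of the 59 decided either call. With the olfactory bulb term the values were -0.43 (limma adjusted p = 0.0798) and -0.09 (limma adjusted p = 0.0675). Under lithium alone or fluoxetine alone limma called 0 members, against 0.0112% of genes in each; 1 and 0 members passed an unadjusted p of 0.05, and edgeR and DESeq2 also called 0.

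The genotype difference under vehicle was then taken for each sex. In males 6 of 7 members were called, 5 lower and Ngfr higher, where 36.7% of all genes were called. In females limma called 0 members and 0.0% of genes; 0 members passed an unadjusted p of 0.05, and edgeR and DESeq2 also called 0. The difference between the sexes was itself called for 6 members, all but Ntrk2, against 16.0% of genes; edgeR called it for 4 members and DESeq2 for 5. Ntrk3 lost the call with TMM factors, quantile normalization, array weights and edgeR, Sort1 with quantile normalization and Bdnf with edgeR and DESeq2, and each of the 6 lost it with the olfactory bulb term. Leaving out heterozygous vehicle male replicate 3, or replicate 4, or wild-type vehicle female replicate 4 took the call of this difference from each of the 6, and limma on the 4 vehicle groups alone called 0 of them. Without some other libraries single members lost it, Bdnf in 13 of 20 cases in all and Sort1 in 3.

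**Figure D2:**
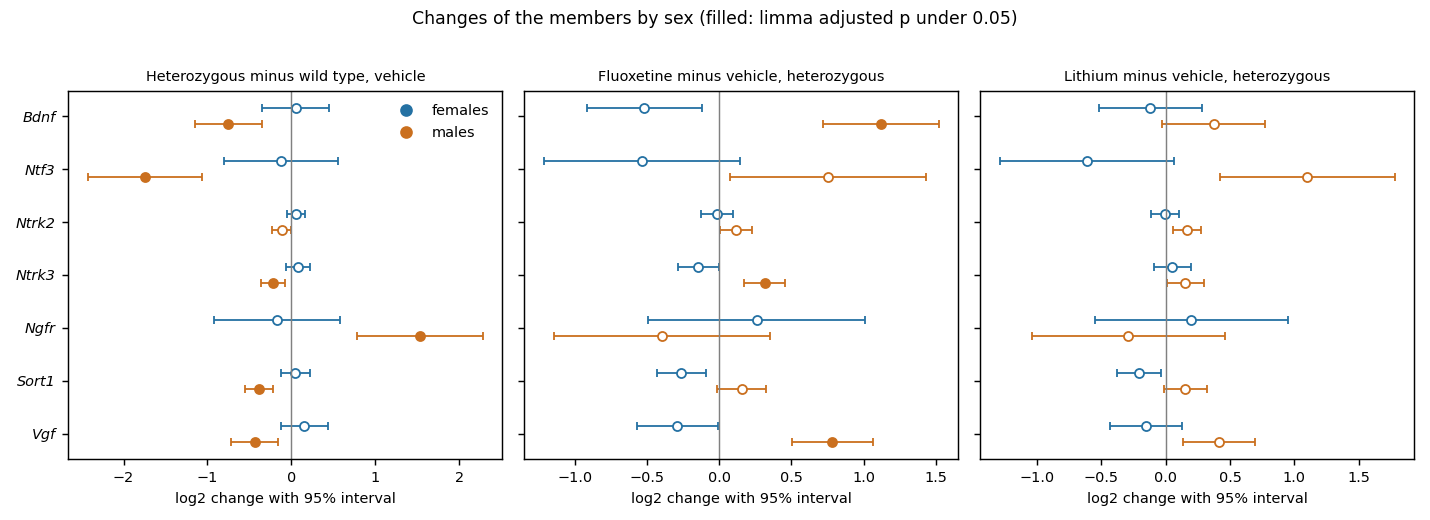
Log2 changes (horizontal axis) of the 7 genes with 95% intervals from limma, for genotype under vehicle and for fluoxetine or lithium against vehicle in heterozygous mice, females and males apart; filled points have an adjusted p under 0.05. For Bdnf, males go from -0.75 with the mutation under vehicle to 1.12 with fluoxetine, while no female value is filled.

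Bdnf in heterozygous vehicle males was 1125, 799, 412, 473 and 619 normalised counts in replicates 1 to 5. Wild-type vehicle males had 1099, 1133, 1051, 1003 and 1129. Replicate 1 of the heterozygous males lay inside the wild-type range, and the other 4 lay below it. The means were 686 ± 287 and 1083 ± 55.6 (SD, n = 5 each), and Bdnf fell by 0.75 ± 0.20 on the log2 scale (limma adjusted p = 0.0028). In females the values overlapped fully: 1039, 884, 862, 1384 and 999 in heterozygous and 859, 989, 1164, 800 and 1153 in wild-type mice. The female difference was 0.05 ± 0.20, with a 95% interval from -0.35 to 0.45 (limma adjusted p = 1), and females and males differed in this effect by 0.81 ± 0.28 (limma adjusted p = 0.0419).

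The olfactory bulb markers moved with these male values. Of the 16 genes of that list, 15 were higher and 0 lower in heterozygous than in wild-type vehicle males, and their summed level was 16429 to 65569 against 7252 to 12364 normalised counts. The list mean of the heterozygous males was -0.09, 0.88, 2.05, 2.01 and 1.51 on the log2 scale in replicates 1 to 5. The mice with the least Bdnf, replicates 3 and 4, had the highest of these list means. Wild-type vehicle males ran from -2.21 to -0.53. Slc17a7 ran from 24775 to 45029 in the heterozygous and from 44132 to 47703 in the wild-type males, and 7 of 10 excitatory neuron markers were lower. Of 14 immediate early genes, induced by neuronal activity, 5 were higher and 0 lower in these males. Of all genes, 36.7% were called in this comparison, so the immediate early share was near that of all genes. The immediate early list mean was 0.15, -0.10, 1.02, 1.04 and 1.03 in replicates 1 to 5 of the heterozygous males, against -0.19 to 0.57 in the wild-type males. With the olfactory bulb term, the male difference of Bdnf was -0.15 (limma adjusted p = 0.894, the highest of 14 alternative settings, whose lowest was 1.8e-06), and limma called 0 of the 7 members and 0 genes in all. The list means of heterozygous and wild-type vehicle males did not overlap, so the term and genotype cannot be told apart in this comparison. A call lost with the term therefore does not decide between them, for Bdnf or for any other member. Fewer cells of a type and less RNA per cell cannot be told apart in bulk tissue, here or in any later comparison.

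Ntf3 was the member with the largest fall, at low counts. Heterozygous vehicle males had 14.7, 11.4, 3.41, 4.04 and 7.69 normalised counts, and wild-type males 37.9, 19.4, 27.4, 26.9 and 24.4. The groups did not overlap: 2 of the 7 members, Ntf3 and Ntrk3, lay wholly below, as did 5.82% of all genes. For Ntf3 the log2 difference was -1.75 ± 0.34 (limma adjusted p = 0.000453). Heterozygous females ran from 12.5 to 24.8 and wild-type females from 13.3 to 32.2, with a difference of -0.13 ± 0.34 (limma adjusted p = 1). The female and male effects differed by 1.62 ± 0.48 (limma adjusted p = 0.0219). The male difference with the olfactory bulb term was -1.12 (limma adjusted p = 0.784, the highest of 13 settings, whose lowest was 1.12e-06). At these levels 1 count is a large step, and the pseudocount of 1 understates the change.

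Of the receptors, Ntrk2, which encodes TrkB, was the steadiest member. Its group means differed by at most 1.15-fold over the 12 groups, and the spread within a group had a median of 5.66% of the mean. In vehicle males it was 16833 to 17667 in heterozygous and 17062 to 19768 in wild-type mice, a log2 difference of -0.12 ± 0.06 (limma adjusted p = 0.09). Quantile normalization turned this to 0.14. Limma called Ntrk2 in 0 of the 25 comparisons made here.

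Ntrk3, which encodes TrkC, the receptor of the Ntf3 protein, was lower in heterozygous vehicle males. Its values were 5688, 6090, 5490, 5461 and 5988, against 6631, 7531, 6385, 6283 and 6533 in wild-type males. The 2 groups did not overlap, with a log2 difference of -0.21 ± 0.07 (limma adjusted p = 0.0153). The call was lost without heterozygous replicate 3 or 4, or without wild-type replicate 2, which had the highest value, where the limma adjusted p was 0.0726, and with quantile normalization. Females overlapped, at 6253 to 6875 and 5569 to 7010, with a difference of 0.08 ± 0.07 (limma adjusted p = 1). The male difference with the olfactory bulb term was -0.12 (limma adjusted p = 0.828, the highest of 14 settings, whose lowest was 0.00594).

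Ngfr encodes p75, which binds neurotrophins and their precursors and is made in the forebrain chiefly by cholinergic neurons and by glia that ensheathe olfactory axons. It was the only member that rose in heterozygous vehicle males: 20.4, 50.8, 62.2, 64.6 and 58.7 against 19.4, 15.5, 9.53, 21.3 and 16.3 normalised counts. Replicate 1, the heterozygous male with the lowest olfactory bulb list mean, lay among the wild-type values, and the other 4 lay above them. The log2 difference was 1.53 ± 0.37 (limma adjusted p = 0.00151), and it was 0.94 with the olfactory bulb term (limma adjusted p = 0.784, the highest of 13 settings, whose lowest was 1.02e-06). Each of 5 listed markers of olfactory ensheathing glia was also higher in these males, where 36.7% of all genes were called in either direction. Frzb had 802 to 2200 against 726 to 965 normalised counts, ranges that overlap. The part of these glia in the values of Ngfr was not tested. Chat, which marks cholinergic neurons, had 0.81 to 11.3 normalised counts in the heterozygous and 9.53 to 14.3 in the wild-type males. In females the difference was -0.17 ± 0.37 (limma adjusted p = 1). The highest value of Ngfr in the series, 182, was in wild-type lithium female replicate 4, whose 4 group mates had 23.8 to 33.1.

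Sort1, the sorting receptor, was 16090, 14755, 10238, 10603 and 12615 in heterozygous vehicle males. Wild-type males had 14159, 18154, 17077, 16803 and 16837. The groups overlapped through heterozygous replicates 1 and 2 and wild-type replicate 1. The log2 difference was -0.39 ± 0.08 (limma adjusted p = 0.000666), and -0.11 with the olfactory bulb term (limma adjusted p = 0.808, the highest of 14 settings, whose lowest was 7.46e-08). In females, heterozygous mice had 15196 to 16801 and wild-type mice 13862 to 16892, a difference of 0.05 ± 0.08 (limma adjusted p = 1).

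Vgf encodes a granule peptide precursor that neurotrophins induce. It was 3450, 2696, 2016, 2227 and 2638 in heterozygous vehicle males and 3358, 3629, 3413, 3213 and 3742 in wild-type males. Heterozygous replicate 1 lay inside the wild-type range and the others below it, as for Bdnf. The log2 difference was -0.44 ± 0.14 (limma adjusted p = 0.0117). Without heterozygous replicate 3 it was -0.35 with an adjusted p of 0.0698 (limma), and with the olfactory bulb term -0.03 with an adjusted p of 0.975 (limma, the highest of 14 settings, whose lowest was 0.000106). Females had a difference of 0.16 ± 0.14 (limma adjusted p = 1).

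The next question was what fluoxetine does to these genes. Averaged over the sexes, limma called 0 members in heterozygous mice, against 4.27% of genes, 0 in wild-type mice, against 0.447%, and 0 over both genotypes, against 3.09%. At an unadjusted p of 0.05 these counts were 2, 1 and 1, and edgeR and DESeq2 called 0 in each. The heterozygous means hid opposite values in the 2 sexes. Splits of the drug effects by sex were added after the data had been seen.

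In heterozygous males, fluoxetine raised 3 of the 7 genes, Bdnf, Vgf and Ntrk3, where 37.6% of all genes were called, 20.5% of all genes in the same direction. Bdnf was 1391, 986, 2579, 1629 and 917 normalised counts in the 5 fluoxetine males, and replicates 3 and 4 are the 2 mice that stood apart. The mean was 1500 ± 670, against 686 ± 287 under vehicle (SD, n = 5 each). The range began inside that of the vehicle males, whose replicate 1 had 1125. Bdnf rose by 1.12 ± 0.20 on the log2 scale (limma adjusted p = 0.000105). Without replicates 3 and 4 the rise was 0.75 (limma adjusted p = 0.0413), with the olfactory bulb term 0.73 (limma adjusted p = 0.00377), and with both 0.51 (limma adjusted p = 0.117). Fitted on these 2 groups alone, limma called 0 genes of all, with an adjusted p of 0.186 for Bdnf.

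Vgf followed Bdnf mouse by mouse. It was 3928, 3347, 7104, 5388 and 3280 in the fluoxetine males, so that replicates 3, 4 and 1 were the highest for both genes, in that order. Vgf rose by 0.78 ± 0.14 over vehicle males (limma adjusted p = 0.000108). Without replicates 3 and 4 this was 0.45 (limma adjusted p = 0.0476), with the olfactory bulb term 0.52 (limma adjusted p = 0.00422), and with both 0.30 (limma adjusted p = 0.146). On these 2 groups alone the adjusted p was 0.186 (limma).

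Ntrk3 was 7039, 6121, 8455, 7927 and 6398 in the same males, all above the 5461 to 6090 of the vehicle males. It was the 1 member that lay wholly above vehicle, as did 1.5% of all genes. Ntrk3 rose by 0.31 ± 0.07 (limma adjusted p = 0.000818). The rise was 0.18 without replicates 3 and 4, and no longer called (limma adjusted p = 0.111). It was 0.25 with the olfactory bulb term (limma adjusted p = 0.0198). The call of Ntrk3 was also lost with that term and without replicates 3 and 4, with array weights, and on these groups alone. The highest limma adjusted p of its alternative settings was 0.341. Ntf3 had a difference of 0.75 (limma adjusted p = 0.0721), Sort1 one of 0.16 (limma adjusted p = 0.137), Ntrk2 one of 0.12 (limma adjusted p = 0.0847) and Ngfr one of -0.40 (limma adjusted p = 0.419).

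The marker lists were compared between these 2 groups as well, where 37.6% of all genes were called, 20.5% of all genes as higher. Of the 16 olfactory bulb genes, 14 were lower and 0 higher with fluoxetine in heterozygous males, and their summed level was 7140 to 32597 normalised counts. Of the 11 glucocorticoid-responsive genes, 7 were higher and 0 lower, and Fkbp5, induced by glucocorticoids, ran from 1075 to 8496 against 858 to 989 under vehicle. Of the 14 immediate early genes, 12 were lower and 0 higher, against vehicle males of which replicates 3, 4 and 5 had the highest list means of the 59 libraries. Each of 8 markers of striatal medium spiny neurons was in the table, and 4 were higher and 0 lower. Their summed level was 4769 to 15938 against 4452 to 4867 normalised counts, and Drd1 had 164 to 328 against 78.4 to 191. Fluoxetine males 3, 4 and 5 had list means of 0.81, 0.80 and 0.70, where the other 56 libraries reached at most 0.25. Of 5 markers of basal forebrain cholinergic neurons, 3 were in the table, 1 higher and 0 lower, with a summed level of 32.0 to 129 against 26.7 to 77.7. The same 3 males had list means of 0.97, 0.43 and 1.02 there, and Chat had 4.998 to 23.1 against 0.81 to 11.3. The part of these lists in the rise of Bdnf was not tested beyond the fit with the olfactory bulb term and the fit without the 2 mice.

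In heterozygous females the values went the other way. Bdnf was 633, 737, 764, 794 and 639 with fluoxetine, each below the 862 to 1384 of the vehicle females. Of all genes 2.77% lay wholly below vehicle in this comparison, and 2 of the 7 members were among them, Bdnf and Sort1. The log2 difference of Bdnf was -0.52 ± 0.20, with a limma adjusted p of 0.174. Sort1 had 12841 to 14265 against 15196 to 16801, a difference of -0.26 ± 0.08 (limma adjusted p = 0.115). Limma called 0 members, against 0.38% of genes, while 4 passed an unadjusted p of 0.05, and edgeR and DESeq2 called 0. The olfactory bulb list had a median difference of 1.15 with 0 of 16 genes called. Its mean was 0.70 to 1.55 in the fluoxetine females and -2.08 to 1.14 in the vehicle females.

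The response to fluoxetine differed between heterozygous females and males for 5 members, against 34.3% of genes. Bdnf differed by -1.64 ± 0.28 (females minus males, limma adjusted p = 0.000259), Vgf by -1.07 ± 0.20 (limma adjusted p = 0.000393), Ntrk3 by -0.46 ± 0.10 (limma adjusted p = 0.000904), Sort1 by -0.42 ± 0.12 (limma adjusted p = 0.00607) and Ntf3 by -1.29 ± 0.48 (limma adjusted p = 0.0318). Ntf3 lost its call without any 1 of 8 of the 20 libraries, 2 in each of the 4 groups, while the other 4 kept theirs without each of the 20. With the olfactory bulb term, Bdnf kept its call at -1.01 (limma adjusted p = 0.0351) and was the only member called. Without the 2 males that stood apart, the same 5 were called, Bdnf at -1.27 (limma adjusted p = 0.00686). With both, limma called 0 members, Bdnf having an adjusted p of 0.10.

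Under fluoxetine, heterozygous and wild-type males differed in Bdnf and Vgf, 2 of 7 members against 9.05% of genes. Wild-type fluoxetine males had 941, 828, 917 and 907 normalised counts of Bdnf, all within or below the heterozygous range of 917 to 2579. Bdnf was higher in the heterozygous males by 0.64 ± 0.21 (limma adjusted p = 0.0464) and Vgf by 0.47 ± 0.15 (limma adjusted p = 0.0373). Without replicate 3 of the heterozygous males the adjusted p was 0.39 for Bdnf and 0.359 for Vgf, and without replicate 4, or any 1 of the 4 wild-type males, neither was called. Without both replicates 3 and 4 the values were 0.27 for Bdnf and 0.14 for Vgf (limma adjusted p = 1 for each). Given the olfactory bulb term they were 0.32 (limma adjusted p = 0.199) and 0.26 (limma adjusted p = 0.154). Both calls were also lost with array weights (limma adjusted p = 0.497 and 0.525) and on these 2 groups alone (limma adjusted p = 0.557 for each). The olfactory bulb list mean was -1.535 to 1.076 in the heterozygous and 0.69 to 1.21 in the wild-type fluoxetine males, with a median difference of -1.53 and 0 of 16 genes called by limma. In females limma called 0 members and 0.0% of genes, Bdnf having a difference of -0.39 ± 0.20 (limma adjusted p = 0.723); 0 members passed an unadjusted p of 0.05, and edgeR and DESeq2 called 0. The difference of the genotype effect between females and males was -1.03 ± 0.29 for Bdnf (limma adjusted p = 0.0719) and called 0 members, against 0.0391% of genes; edgeR and DESeq2 called 2 members there. In wild-type mice fluoxetine gave a log2 difference of -0.17 ± 0.14 for Bdnf (limma adjusted p = 0.546), and the heterozygous response differed from it by 0.47 ± 0.20 (limma adjusted p = 0.169). That difference between genotypes was called for 0 members and 0.0% of genes, with 2 members at an unadjusted p of 0.05 and 0 by edgeR and DESeq2.

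The same comparisons were made for lithium. Limma called 0 members in heterozygous mice, against 0.497% of genes, 0 in wild-type mice, against 0.162%, 0 over both genotypes, against 2.12%, and 0 for the difference between genotypes, against 0.0%. At an unadjusted p of 0.05 the counts were 2, 0, 1 and 0, and edgeR and DESeq2 called 0 in each. Bdnf was 1173, 1282, 742, 792 and 819 in heterozygous lithium females and 595, 1110, 795, 800 and 941 in heterozygous lithium males. Wild-type mice had 900 to 1173 in females and 839 to 1218 in males, so both genotypes overlapped in each sex. Over both genotypes the log2 difference of Bdnf was 0.07 ± 0.10, with a 95% interval from -0.13 to 0.27 (limma adjusted p = 0.826).

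In heterozygous males each of Bdnf, Vgf, Ntf3, Ntrk2, Ntrk3 and Sort1 had a positive value with lithium, and limma called 0 members, against 0.916% of genes. The largest were 1.10 ± 0.34 for Ntf3 (limma adjusted p = 0.0712) and 0.41 ± 0.14 for Vgf (limma adjusted p = 0.0925); 4 members passed an unadjusted p of 0.05, edgeR called 0 and DESeq2 1. Ntrk2 was 18284 to 20660 with lithium, above the 16833 to 17667 of the vehicle males, a separation in either direction that 2.39% of all genes showed, with a difference of 0.16 ± 0.06 (limma adjusted p = 0.0921). Ntf3 was the 1 member whose lithium response differed between heterozygous females and males, by -1.71 ± 0.48 (limma adjusted p = 0.042), against 3.07% of genes. That call was lost in limma on those groups alone, in edgeR, with the olfactory bulb term, and without any 1 of 13 of the 20 libraries. In heterozygous females limma called 0 members, against 0.274% of genes; 1 passed an unadjusted p of 0.05, and edgeR and DESeq2 called 0.

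Sex alone, over all groups, called 0 members and 0.156% of genes (limma), with 0 members at an unadjusted p of 0.05 and 0 by edgeR and DESeq2. The differences, females minus males, ran from -0.04 for Ntrk3 to 0.24 for Ngfr.

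The other genes of neurotrophin signalling were taken from a list of 92, of which 90 could be tested. Under vehicle 8 were higher and 14 lower in heterozygous mice, where 13.1% of all genes were called, with a median of -0.02 beside -0.00194 over all genes. Limma called 0 genes of the list with the olfactory bulb term, and 0 on the vehicle groups alone. Necdin (Ndn), which binds p75 and restrains the cell cycle, had the smallest p and fell by 0.37 ± 0.07 (limma adjusted p = 0.00879). Scg3, a granin of secretory granules, fell by 0.30 ± 0.07 (limma adjusted p = 0.0158), and Arnt2, the partner of the activity-induced factor Npas4, by 0.28 ± 0.08 (limma adjusted p = 0.0257). Plcg1, the phospholipase that Trk receptors activate, rose by 0.13 ± 0.04 (limma adjusted p = 0.0262). In males alone 16 were higher and 28 lower, beside 36.7% of all genes called, and in females, where limma called 0 genes in all, 51 of the 90 had a value above 0 and 39 one below. Ndn was called in neither sex alone (-0.23, limma adjusted p = 0.074, in males and -0.51, limma adjusted p = 0.15, in females). With the olfactory bulb term it was -0.07 in males (limma adjusted p = 0.924). In females it was -0.51 with that term (limma adjusted p = 0.048), and 1 gene in all was called there. It was not called in females without the 2 fluoxetine males as well (limma adjusted p = 0.051), or on the groups compared alone (limma adjusted p = 0.959). Ndn was higher with lithium in heterozygous mice by 0.35 ± 0.07 (limma adjusted p = 0.0113), as the only gene of the list called there, against 0.497% of all genes. It kept the call with the olfactory bulb term (0.33, limma adjusted p = 0.00777) and lost it on the groups compared alone (limma adjusted p = 0.14). In wild-type mice the lithium value of Ndn was 0.07 ± 0.07 (limma adjusted p = 0.996). The difference between the genotypes in this response was not called.

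Fluoxetine in heterozygous mice called 4 of the 90 higher and 3 lower, against 4.27% of all genes, and 0 higher and 1 lower without the 2 males that stood apart. Pcsk1, a convertase that cleaves precursors in granules, fell by 0.40 ± 0.07 (limma adjusted p = 0.00212) and was 852 to 1668 in males and 1359 to 1745 in females, against 1692 to 1968 and 1763 to 2187 under vehicle. In each sex the fluoxetine group lay wholly below its vehicle group, as did 2.77% of all genes in females. The share of all genes in males is not given here. In males alone Pcsk1 fell by 0.48 (limma adjusted p = 0.000638), and by 0.30 without the 2 males that stood apart, no longer called (limma adjusted p = 0.0657). In females alone it was not called (-0.33, limma adjusted p = 0.114). Over both genotypes Pcsk1 fell with fluoxetine by 0.29 ± 0.05 (limma adjusted p = 0.000822). In wild-type mice its value was -0.17 ± 0.08 (limma adjusted p = 0.227). The difference between the genotypes in this response was -0.23 ± 0.11 and was not called (limma adjusted p = 0.2). Gab2, a docking protein of receptor kinases, rose by 0.29 ± 0.08 (limma adjusted p = 0.026) and Ndn by 0.25 ± 0.07 (limma adjusted p = 0.0383). Without the 2 males Pcsk1 kept its call at -0.31 (limma adjusted p = 0.00958), while Gab2 had 0.09 (limma adjusted p = 0.299) and Ndn 0.26 (limma adjusted p = 0.131). In heterozygous males 29 of the 90 were higher and 9 lower, where 37.6% of all genes were called, 20.5% of all genes as higher. Among them Cpe, the carboxypeptidase that sorts and trims Bdnf precursor, rose by 0.40 ± 0.07 (limma adjusted p = 9.28e-05), Chga, a granin, by 0.81 ± 0.15 (limma adjusted p = 0.000148) and Lingo1, a partner of p75, by 0.79 ± 0.15 (limma adjusted p = 0.000164). Mapk3, the kinase Erk1, fell by 0.40 ± 0.07 (limma adjusted p = 0.000101). Without the 2 males limma called 2 of the 90 higher and 1 lower, with Cpe at 0.30 (limma adjusted p = 0.0358) and Mapk3 at -0.30 (limma adjusted p = 0.038). Chga was then 0.33 (limma adjusted p = 0.0569) and Lingo1 0.51 (limma adjusted p = 0.0515). On these groups alone limma called 0 of the 90, in males and over both sexes.

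Of the other neurotrophins, Ntf5, which like Bdnf binds TrkB, did not pass the filter, and its highest value in the series was 180.

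**Figure D3:**
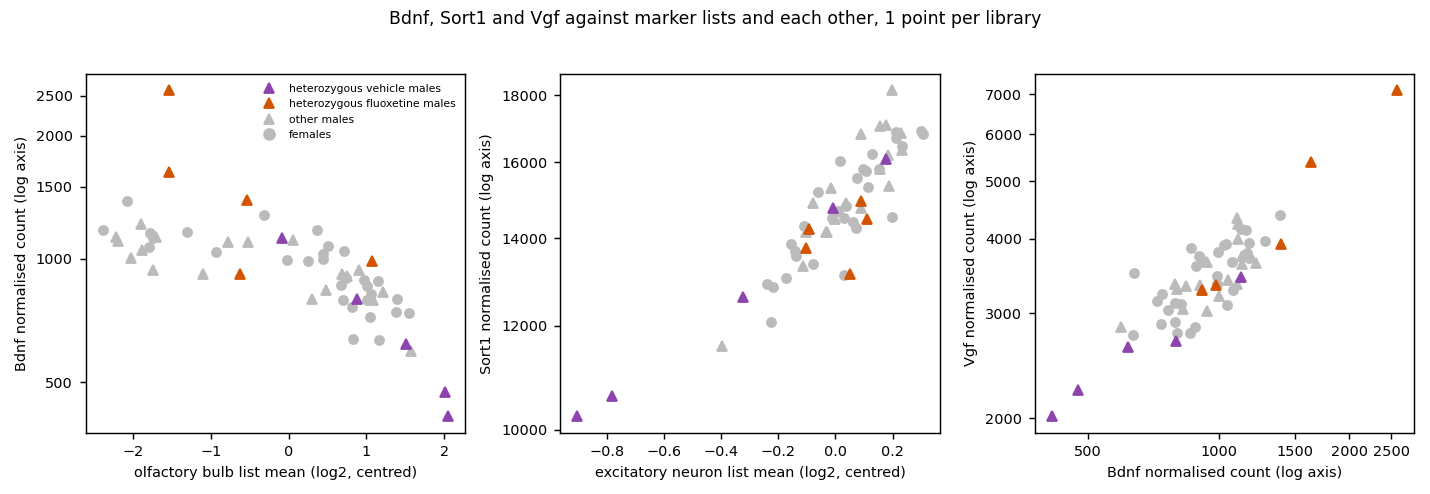
Each point is 1 library: Bdnf against the olfactory bulb list mean, Sort1 against the excitatory neuron list mean, and Vgf against Bdnf, with counts on log axes and list means as log2 values centred on all libraries. The heterozygous vehicle males spread along the olfactory bulb axis from -0.09 to 2.05 as Bdnf goes from 1125 to 412, and the 2 fluoxetine males with 2579 and 1629 lie above the other libraries of similar list mean.

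The members were then compared library by library, on log2 values minus the mean of the library's own group, which removes mean differences of genotype, drug and sex. Differences in spread between groups remain. The SD of Bdnf was 41.9% and 44.7% of the mean in heterozygous vehicle and fluoxetine males, against 5.13% and 5.49% in the wild-type males. Groups of wide spread therefore weigh more in these relations. Bdnf and Vgf had a Pearson r of 0.84 and a Spearman rho of 0.77 over the 59 libraries (within-group permutation p = 1e-05, the smallest that 100000 permutations give; adjusted p = 6.12e-05 and 4.9e-05 over 49 relations). Without the 2 libraries farthest from the median of Bdnf r was 0.78, and without the 2 heterozygous fluoxetine males it was 0.81. Bdnf and Sort1 had r = 0.66 and rho = 0.66 (permutation p = 1e-05, adjusted p = 6.12e-05 and 4.9e-05), and r = 0.66 without the 2 farthest libraries. Bdnf and its receptor gene Ntrk2 had r = 0.29 and rho = 0.25 (permutation p = 0.0836 and 0.0856, adjusted p = 0.146 and 0.135), and r = 0.17 without the 2 farthest. Ntf3 and its receptor gene Ntrk3 had r = -0.03 and rho = 0.00 (permutation p = 0.845 and 0.986, adjusted p = 0.863 and 0.986), and r = -0.12 without the 2 farthest.

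The same libraries related the members to the marker lists. Sort1 and the excitatory neuron list had r = 0.89 and rho = 0.85 (permutation p = 1e-05, adjusted p = 6.12e-05 and 4.9e-05), and r = 0.85 without the 2 farthest libraries. Bdnf and the olfactory bulb list had r = -0.68 and rho = -0.77 (permutation p = 1e-05, adjusted p = 6.12e-05 and 4.9e-05), unchanged to 2 decimals at -0.68 without the 2 farthest. Bdnf and the immediate early list had r = -0.17 and rho = -0.12 (permutation p = 0.352 and 0.433, adjusted p = 0.421 and 0.493), and r = -0.13 without the 2 farthest. Vgf and the glucocorticoid-responsive list had r = 0.60 and rho = 0.43 (permutation p = 0.00142 and 0.00254, adjusted p = 0.00497 and 0.0083), and r = 0.47 without the 2 farthest or 0.46 without the 2 heterozygous fluoxetine males. Libraries share depth and tissue makeup, and these relations carry both.

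**Figure D4:**
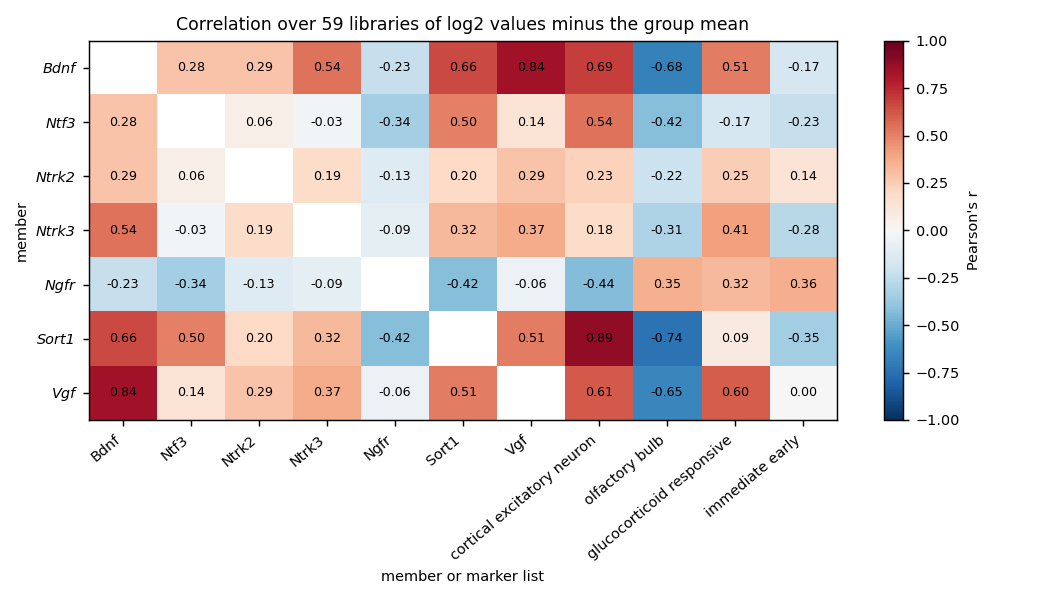
Pearson's r over 59 libraries between the 7 members (rows) and the members and 4 marker lists (columns), on log2 values minus the group mean; red is positive and blue negative. Bdnf with Vgf (0.84) and Sort1 with the excitatory neuron list (0.89) are the highest, and the Ntrk2 row stays between -0.22 and 0.29.

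Among 8729 genes at or above the median level, the 3 whose library-by-library pattern was most like Bdnf were Acsl5 (r = 0.90), Senp2 (r = 0.90) and Lingo1 (r = 0.89), over 59 libraries and as deviations from the group means; on the undeviated values r was 0.93, 0.90 and 0.92. For Vgf they were Plppr2 (r = 0.94), Numbl (r = 0.93) and Rtn4rl2 (r = 0.93), and for Sort1 Kcnq5 (r = 0.96), Trim37 (r = 0.96) and Rbfox1 (r = 0.95), with undeviated r between 0.93 and 0.96 for these 6. Ntrk2 and Ntrk3 had no neighbour as close: Mrs2, Rap2a and Nrd1 reached 0.69, 0.69 and 0.68 for Ntrk2, and Fstl4, Zfp318 and Pdzd8 reached 0.73, 0.72 and 0.67 for Ntrk3. For Ntf3 the nearest were Camkv, Lypd1 and Gipc1 (0.72, 0.71 and 0.70), and for Ngfr Akap12, Sik1 and Ewsr1 (0.69, 0.67 and 0.65).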

How the data were processed

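Polyadenylated RNA of 59 prefrontal cortex samples was sequenced from stranded libraries, per the labels' protocols. Salmon 0.11.2, R 3.6.0, DESeq2 1.19.11 and the GRCm38 build are named in the submitters' processing notes, without their roles. The authors deposited 1 table of a signal, here each count over its library's size factor, for 18088 genes; whole counts were recovered from 100% of values within 0.01. Values were analysed as log2(value + 1) for genes at 10 or more in at least 4 libraries, with limma 3.58.1 in R 4.3.3 (1 mean for each of 12 groups, 47 residual degrees of freedom, trended moderation), and p-values were adjusted by Benjamini-Hochberg over 17901 genes within each of 25 comparisons, 9 of them added after seeing the data. edgeR 4.0.16 and DESeq2 1.42.0 on recovered counts were alternatives. The members, gene lists and comparisons were chosen with earlier results of these data known. Named pathway genes were up to 4 called genes of smallest p in a comparison, with Ntf5, Ndn and Pcsk1, of which the main ones are given; some genes of the rule are not reported here. The nearest genes were the 3 of highest r at or above the median level, without predicted genes. Replicates differed by more than sampling noise (chi-square per gene 3.047 or more in 116 pairs). The limma step was also run on counts simulated for each gene on its own, without shared tissue makeup or unequal spread between groups. That run therefore does not check the calls given here against either.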

Additional observations from a re-analysis of the deposited data

Results flagged for a closer look

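A sample far from its group was looked for in each member and group, in 84 sets of 4 or 5 libraries. Chance flags about 1 set in 20, and 3 were found, which is not more than chance would give. Ngfr was 182 normalised counts in wild-type lithium female replicate 4, Ntf3 was 29.5 in heterozygous lithium male replicate 5, and Ntrk3 was 7531 in wild-type vehicle male replicate 2, each the highest of its group.

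The effect of the mutation under vehicle differed between females and males, females minus males on the log2 scale, by 0.81 for Bdnf, 1.62 for Ntf3, 0.29 for Ntrk3, -1.70 for Ngfr, 0.43 for Sort1 and 0.59 for Vgf, each with a limma adjusted p under the threshold of 0.05. None of these 6 passed when the mean of the olfactory bulb markers was a term of the model. In vehicle males the means of that list did not overlap between heterozygous and wild-type mice, so the term and genotype cannot be told apart there.

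The effect of fluoxetine in heterozygous mice differed between the sexes in the same sense of subtraction by -1.64 for Bdnf, -1.29 for Ntf3, -0.46 for Ntrk3, -0.42 for Sort1 and -1.07 for Vgf, and the effect of lithium by -1.71 for Ntf3 (limma). The vehicle males enter both of these and the genotype effect, so the differences are not independent of each other.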

How the results depend on the processing

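Alternatives were another pseudocount (5), no filter or a filter of 100, TMM factors, quantile normalization, array weights, the replicate number as a block, the mean of the olfactory bulb or of the oligodendrocyte markers as a term, the fit without heterozygous fluoxetine males 3 and 4 (alone or with the olfactory bulb term), only the groups compared, edgeR and DESeq2, and each library left out. The filter of 100 gives no value for Ntf3 and Ngfr, and DESeq2 gave Ntf3 no adjusted p under vehicle. Of the refitted log2 changes, 2225 kept their direction and side of the threshold, 59 gained a call, 87 lost one and 21 changed sign; with 1 library left out, 3860 kept both, 46 gained a call and 98 lost one. A value called in neither fit whose sign changes inside its 95% interval counts as kept. Ntf3 and Ngfr rest on few counts. Where a result changed, the cause was not tested.

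With quantile normalization the log2 value of Ntrk2 changed sign, to 0.0933 for genotype under vehicle, 0.0725 under lithium, 0.0608 over all treatments, -0.093 for genotype under vehicle by sex and 0.14 in males, 0.12 for genotype under fluoxetine by sex, -0.0768 for fluoxetine by genotype, 0.19 for fluoxetine in heterozygous mice by sex, 0.12 in their females and -0.0775 in their males, and 0.0422 for lithium by sex. Given the olfactory bulb term, Vgf was 0.0593 for genotype under vehicle, Bdnf 0.16, Sort1 0.0285 and Vgf 0.18 for fluoxetine in wild-type mice, and Sort1 -0.12 for fluoxetine by genotype and -0.0215 for fluoxetine in heterozygous males, all reversed in sign. Without the 2 males as well, Bdnf was 0.12 and Sort1 0.0408 in wild-type mice, and Bdnf -0.0216 and Vgf -0.0731 for fluoxetine by genotype.

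The number of members called for genotype under vehicle, 2, was 1 with the filter of 100, quantile normalization, the replicate block, the oligodendrocyte term, edgeR or DESeq2, 4 with array weights or without the 2 males, and 0 with the olfactory bulb term, with that term and without the 2 males, or with only the groups compared. Over all treatments it went from 2 to 1 with the filter of 100, 5 with array weights, and 0 with the olfactory bulb term with or without the 2 males. Under lithium it was 4 with array weights. In vehicle males it went from 6 to 0 with the olfactory bulb term with or without the 2 males, and so did the difference by sex, which was also 0 with only the groups compared. For genotype under fluoxetine it was 2 by sex with edgeR or DESeq2, and in males it went from 2 to 1 with quantile normalization or the oligodendrocyte term and to 0 with array weights, the olfactory bulb term, without the 2 males, both, or only the groups compared.

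For fluoxetine, 1 member was called in wild-type mice with array weights or only the groups compared, 1 over both genotypes with the olfactory bulb term, and 1 by genotype with array weights. In heterozygous mice the difference by sex went from 5 to 1 with the olfactory bulb term and 0 without the 2 males as well, females from 0 to 3 with array weights and 1 with only the groups compared, and males from 3 to 5 with array weights and 0 with only the groups compared or with the olfactory bulb term and without the 2 males. Ntrk3 was not among the 5 called in heterozygous fluoxetine males with array weights. For lithium over both genotypes, 1 was called with the oligodendrocyte term and 2 with the olfactory bulb term and without the 2 males. In heterozygous mice the lithium difference by sex went from 1 to 0 with the filter of 100, the olfactory bulb term, only the groups compared or edgeR, to 5 with array weights, 3 with the oligodendrocyte term or without the 2 males, and 2 with DESeq2 or with the olfactory bulb term and without the 2 males. Lithium females went from 0 to 3 with array weights and 1 with the olfactory bulb term and without the 2 males, and lithium males from 0 to 5 with array weights, 3 without the 2 males and 1 with DESeq2.

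With 1 library left out, members called ranged from 0 to 4 for genotype under vehicle (0 without heterozygous male 3, 4 without heterozygous male 1), 0 to 6 for its difference by sex, 0 to 3 for genotype under fluoxetine by sex and in males, 0 to 1 for fluoxetine in heterozygous mice and 3 to 5 in their males, and 0 to 3 for lithium in heterozygous mice by sex and 0 to 5 in their males.

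Over the series as a whole, same-numbered libraries did not deviate together. Of 319 such pairs 65 had r over 0.1, and the median was -0.00362, beside -0.00201 for differently numbered pairs. Of 59 libraries 8 correlated best with their own number. Single same-numbered pairs ran from -0.591 to 0.456, and pairing among only some of the groups was not tested. With the replicate block, 1 member was called for genotype under vehicle in place of 2 and 5 for its difference by sex in place of 6, and the counts of the other comparisons were the same.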
